A study of Mus musculus with 4 samples.

Results

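The immediate early activity genes are genes that neurons and other cells switch on within minutes of a stimulus, without making new protein first. The set was chosen by name: Fos, Fosb, Jun, Junb, Egr1, Egr2, Egr3, Ier2, Arc and Npas4. Of these 10 names, 9 matched a gene among the 20421 genes of the deposited table, and Egr2 was not analysed here. The filter on low values, a mean over both libraries of 1 CPM or more (CPM being read counts scaled to a common library size), was passed by 8 of the 9 members and by 14557 genes in all. Fosb fell short of it.

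The samples were brains of mouse embryos at embryonic day 15 on the C57BL/6 strain, labelled either WT or FOXM1f/+;Nestin-Cre. The latter combine an allele written FOXM1, as the human gene for a cell cycle transcription factor is, with Nestin-Cre. That is a recombinase driver active in progenitors of the nervous system. The series names 4 samples, 2 for each genotype, its text speaks of triplicates, and the table holds 1 column of counts per genotype. These columns are called the transgenic and the WT library. The names are short forms, since the genotype label does not state whether the FOXM1 allele adds or removes gene function. A column carries a genotype and no sample, and pooling is not stated. Of the samples labelled WT, one has a title naming nestin and the other a title naming foxm1, so the WT library may carry either allele. No difference below has a replicate check, and no p-value was computed. Intervals are 95% and cover counting error only.

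The products act in different ways. Fos and Jun proteins pair through leucine zippers into the AP-1 factor, Egr proteins bind DNA through zinc fingers, and Npas4 pairs with Arnt proteins to set synaptic programmes in active neurons. Kinase cascades and calcium reach their promoters through Srf with its ternary complex partners and through Creb, while Arc is an effector that remodels synapses. Their transcripts are short-lived, so a level reflects recent signalling and the handling of the tissue alike.

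The libraries held 17856653 (transgenic) and 17543705 (WT) reads and differed in sex-linked and plexus genes. Xist had 9628 transgenic and 5 WT reads, Kdm5d of the Y chromosome 0 and 773, and Ttr, made by the choroid plexus, 177 and 11255. Mouse Foxm1 had 1289 and 1139 reads, a ratio of 1.11 (1.03 to 1.21). Whether the allele holds a human FOXM1 sequence is not stated by the label, and these reads would not measure one. The summed level of 11 neuronal markers was 8176 CPM (transgenic) and 8752 CPM (WT), and that of 9 radial glia markers was 2243 and 1841 CPM.

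The upstream sequences of Fos, Fosb and Jun are shown because Fos and Jun were the members with intervals on one side of 1, in opposite directions, and Fosb is the closest relative of Fos in the set. Each is the 250 bases before the gene's start in RefSeq, 5′ to 3′ on the gene's strand, build GRCm38.p6. Capitals mark TGACG (the core of the cAMP response element), TATAAA, and in Jun TGACATCA, an AP-1-like site. Fos lies at chr12:85473640-85473889 on the plus strand, Fosb at chr7:19310046-19310295 and Jun at chr4:95052223-95052472, both on the minus strand.
Fos: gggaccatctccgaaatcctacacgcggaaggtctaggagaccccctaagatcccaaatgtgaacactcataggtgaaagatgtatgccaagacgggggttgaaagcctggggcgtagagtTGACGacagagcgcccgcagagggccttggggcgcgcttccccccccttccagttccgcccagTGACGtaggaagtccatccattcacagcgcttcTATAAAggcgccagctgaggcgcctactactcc
Fosb: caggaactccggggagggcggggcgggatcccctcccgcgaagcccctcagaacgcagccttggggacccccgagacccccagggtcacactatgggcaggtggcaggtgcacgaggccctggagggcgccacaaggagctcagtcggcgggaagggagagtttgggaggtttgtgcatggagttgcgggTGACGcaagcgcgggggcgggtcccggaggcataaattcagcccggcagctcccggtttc
Jun: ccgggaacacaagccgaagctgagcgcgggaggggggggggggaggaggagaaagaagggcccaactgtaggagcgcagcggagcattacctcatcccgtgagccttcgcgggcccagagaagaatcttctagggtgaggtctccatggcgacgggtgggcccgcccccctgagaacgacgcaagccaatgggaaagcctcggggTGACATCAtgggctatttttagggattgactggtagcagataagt

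Windows of 300 bases, which also hold the first 50 bases of the transcript, were matched for 5 analysed members: Fos, Fosb, Jun, Junb and Npas4. Searched on both strands, TGACG occurred in 4 of the 5 windows, all but that of Jun, against 20.8% of 32851 mouse promoter windows. In Fos it stood at -129 and -66 from the start, in Fosb at -60, in Junb at -106 and in Npas4 at -179 (minus strand) and -169. The full palindrome TGACGTCA, which includes TGACG, was in none of the 5 and in 1.79% of all windows. The CArG box was in none of the 5 and in 1.63%, and TGANTCA was in none and in 7.81%. The windows reach 250 bases upstream, so sites further out were not searched, and their absence from these genes is not shown. TATAAA occurred in Fos, at -33, and in Junb, at its first transcribed base, against 13.6% of windows. GGGCGG was in 4 of the 5 windows against 35.7%, and GCGNGGGCG, an Egr-type site, in Fosb alone of the 5, against 5.55%. The letters TGACATCA (3.62% of windows) were searched after the Jun window had been read, and stood there at -45. A match of letters is a description of the window.

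Fos (ENSMUSG00000021250; chromosome 12, 85473890 to 85477273, GRCm38) encodes the founding Fos protein of AP-1. Its count was 12 reads (transgenic) and 28 reads (WT), 0.672 and 1.60 CPM. That is 2.37-fold lower in the transgenic library, with a counting interval of 1.17 to 5.13. Of all tested genes, 1.09% had a lower ratio. The gene lies close to the filter: with at least 1 CPM required in both libraries it is left out. Fosb (ENSMUSG00000003545; chromosome 7, 19302696 to 19310051), a Fos relative whose stable splice form builds up under repeated stimulation, had 2 and 8 reads, 0.112 and 0.456 CPM. Its ratio of 0.246 has an interval of 0.0254 to 1.23, which spans 1. Both genes were thus lower by count in the transgenic library, Fos beyond counting error and Fosb not.

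The rest of the Fos family, taken from the list of AP-1 relatives, was far more abundant. Fosl2 had 314 and 395 reads and was 1.28-fold lower in the transgenic library (1.10 to 1.49). Fosl1 had 103 and 97 reads, a ratio of 1.04 (0.783 to 1.39). Summed over Fos, Fosb, Fosl1 and Fosl2, a sum formed after the values were seen, the family had 431 and 528 reads, 1.25-fold lower (1.10 to 1.42). Fosl2 made up 72.9% (transgenic) and 74.8% (WT) of the family's reads. Fos made up 2.78% (exact binomial interval 1.45 to 4.81) and 5.30% (3.55 to 7.57), and these intervals overlap.

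Jun (ENSMUSG00000052684; chromosome 4, 95049034 to 95052222), the main partner of Fos proteins in AP-1 and a target of the JNK kinases, went the other way. Its count was 1780 reads (transgenic) and 1466 reads (WT), 99.7 and 83.5 CPM, and it was 1.19-fold higher in the transgenic library (1.11 to 1.28). Junb (ENSMUSG00000052837; chromosome 8, 84974484 to 84978718), which in many settings restrains Jun, had 133 and 159 reads, 7.45 and 9.06 CPM. Its ratio of 0.822 (0.648 to 1.04) has an interval that spans 1. Jund, the third Jun gene and no member, had 657 and 597 reads, a ratio of 1.08 (0.966 to 1.21). Summed, again after the values were seen, the Jun family had 2570 and 2222 reads and was 1.14-fold higher (1.07 to 1.20). Jun made up 69.3% (transgenic) and 66.0% (WT) of these reads, as Fosl2 made up most of those of the Fos family. The sums lay on opposite sides of 1 mainly through Jun and Fosl2, and not every gene of a family shared its side.

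Neighbouring transcripts limit these values, because the sources used here do not give the strand setting of the counting. Junos, an antisense RNA that overlaps Jun over 689 bases, had 17 transgenic and 33 WT reads and was 1.98-fold lower (1.07 to 3.78). Its direction was thus opposite to that of Jun. Junb overlaps Prdx2, a peroxiredoxin gene on the other strand, over 351 bases. Prdx2 had 12885 and 12179 reads, so a small part of them would weigh on Junb if counted there, which is not known. Both overlaps are of whole gene spans, introns included. Whether the counting told reads of either strand in these overlaps apart is not known.

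Egr1 (ENSMUSG00000038418; chromosome 18, 34859823 to 34864984), a zinc finger factor used widely as a marker of neuronal activity, had 61 and 84 reads, 3.42 and 4.79 CPM. Its ratio of 0.713 has an interval of 0.504 to 1.004, which just holds 1. Egr3 (ENSMUSG00000033730; chromosome 14, 70077203 to 70082614), a relative that Egr1 and calcium signals induce, had 83 and 90 reads, 4.65 and 5.13 CPM, a ratio of 0.906 (0.664 to 1.23). Egr4 of the wider list had 4 and 6 reads, too few to give a direction. Both Egr members were lower by count in the transgenic library and neither beyond counting error. Nab1 and Nab2, corepressors that bind Egr proteins and are themselves Egr targets, had ratios of 0.964 (0.848 to 1.10) and 1.34 (1.04 to 1.72). Nab2, at 151 and 111 reads, was thus higher in the transgenic library.

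Ier2 (ENSMUSG00000053560; chromosome 8, 84661331 to 84662852), a single-exon gene for a small nuclear protein, had 549 and 509 reads, 30.7 and 29.0 CPM. Its ratio was 1.06 (0.938 to 1.20), the narrowest interval among the members after that of Jun. Npas4 (ENSMUSG00000045903; chromosome 19, 4984355 to 4989971), which responds to calcium entry in neurons, had 134 and 128 reads, 7.50 and 7.29 CPM, a ratio of 1.03 (0.801 to 1.32). For these genes the libraries could not be set apart at this depth. Of the Npas4 partners, Arnt2, the form of neurons, had 3826 and 4244 reads and was 1.13-fold lower (1.08 to 1.18), while Arnt had a ratio of 1.08 (0.970 to 1.20).

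Arc (ENSMUSG00000022602; chromosome 15, 74669083 to 74672570), whose protein forms capsid-like shells and draws AMPA receptors from synapses, had 109 and 80 reads, 6.10 and 4.56 CPM. With a ratio of 1.34 it had the highest point estimate of the members, and 94.9% of tested genes had a lower ratio. Its interval of 0.994 to 1.81 spans 1 on the deposited scale. Scaled by TMM factors the ratio was 1.35 (1.005 to 1.83), and by RLE factors 1.36 (1.01 to 1.84), both above 1. Whether Arc lay beyond counting error therefore depended on the scaling, and it stayed under 1.5-fold on each scale.

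**Figure D1:**
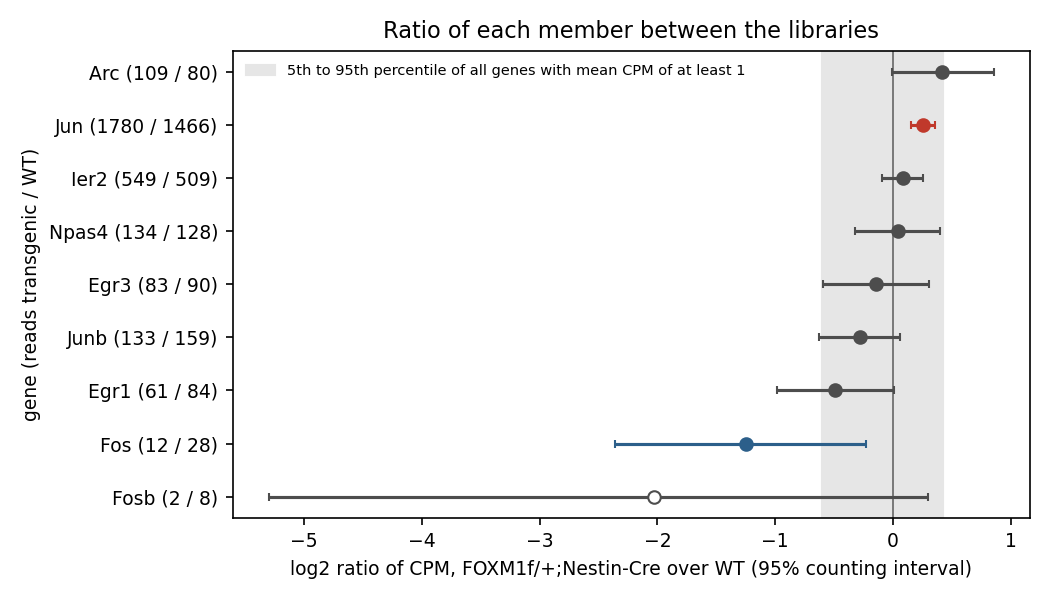
Log2 ratio of CPM, FOXM1f/+;Nestin-Cre over WT, for each of the 9 analysed members with its 95% counting interval (bars) and its reads in the transgenic and the WT library (in brackets). The open point is Fosb, which did not pass the filter on low values. Of the 9 intervals, that of Jun lies wholly above and that of Fos wholly below a log2 ratio of 0, and the grey band holds the central part of all tested genes, from -0.60 to 0.43.

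Among the 8 members tested, 1 (Fos) was lower by 1.5-fold or more, against 5.23% of all tested genes, and 0 were higher by that much, against 2.53%. At 2-fold, the count was again 1 lower (Fos), against 1.83%, and 0 higher, against 0.522%. A counting interval wholly above 1 was found for 1 member (Jun), against 16.5% of all tested genes, and one wholly below 1 for 1 member (Fos), against 19.2%. As shares of 8 genes, 12.5% each way, these lie near the background and set the members apart in neither direction. Fos passed the filter on low values only through the WT library, at 0.672 (transgenic) and 1.60 CPM (WT). The counts of lower members thus rest on a gene that the filter let in by its WT value. With at least 1 CPM required in both libraries, 0 members were lower by 1.5-fold, against 3.74% of the genes passing that filter. The median log2 ratio of the 8 was -0.05, beside -0.01 over all tested genes. With Fosb it was -0.14 over 9 members, beside -0.03 over all genes of the table with reads in both libraries. Of the 8 ratios, 4 lay above 1 and 4 below.

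In the authors' deposited table, 1 of the 8 tested members is marked as significant, Fos, against 6.27% of the genes tested here. Fosb, below the filter on low values, is marked in the authors' deposited table too. The authors' deposited table gives Fos a p-value of 0.00883 and Fosb 0.0471. The authors' deposited table also gives Egr1 0.0434, Arc 0.0463 and Jun 5.32e-07, with none of them marked, and every marked gene there reaches 1.5-fold. These p-values are unadjusted and stand beside 1 column of counts per genotype. The deposited adjusted values of Fosb, Egr1 and Arc lie above 0.05, though Fosb is marked, and those of Fos and Jun lie below it. For Fosb, Egr1 and Arc the exact counting interval held 1 on the deposited scale although the unadjusted deposited p-value was below 0.05.

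**Figure D2:**
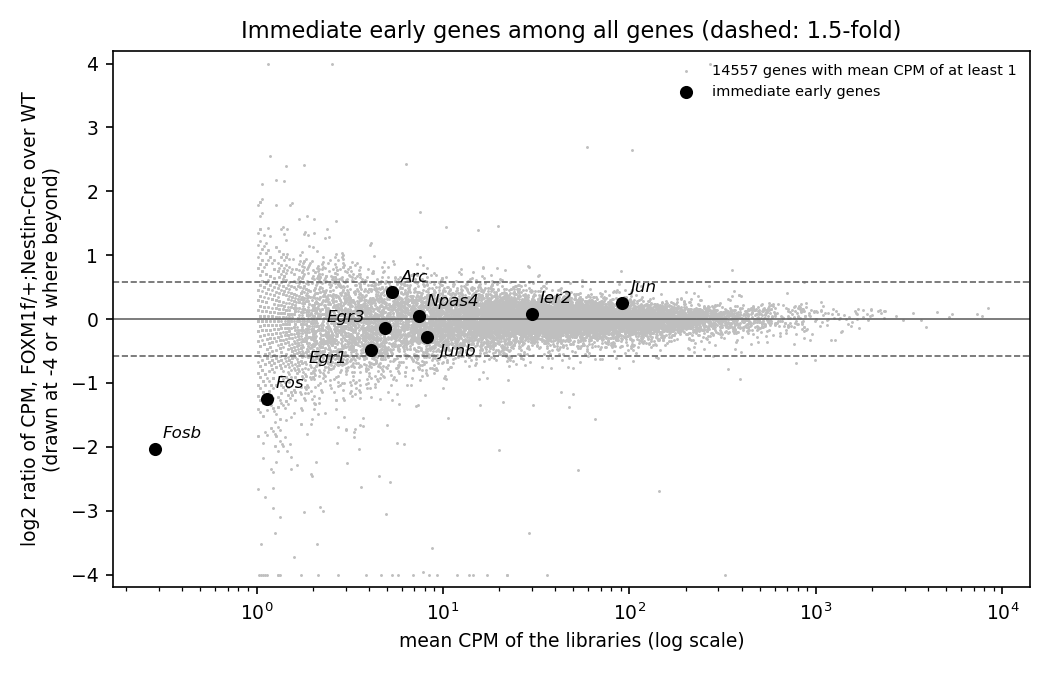
Log2 ratio of CPM (vertical axis, drawn at -4 or 4 where beyond) against the mean CPM of the libraries (log scale) for 14557 tested genes (grey) and the 9 analysed immediate early genes (black, named), with dashed lines at 1.5-fold. Jun and Ier2 sit among well-read genes near 0, while Fos and Fosb lie at the low-count end, where ratios of all genes spread most.

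Levels of different genes were set beside each other as CPM per kb of annotated exon. Jun led with 31.3 (transgenic) and 26.2 (WT) CPM per kb, above 86.8% and 83.8% of tested coding genes. Ier2 followed with 20.2 and 19.1 CPM per kb, above 79.0% and 77.6%. These 2 genes were well above the others, and Jun alone gave 62.2% of all reads of the members in the transgenic and 57.4% in the WT library.

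Junb came next with 3.24 and 3.94 CPM per kb, then Arc with 2.00 and 1.49 and Npas4 with 1.81 and 1.76. Egr3 had 1.05 and 1.16 CPM per kb and Egr1 0.762 and 1.07, levels exceeded by most coding genes. Fos had 0.286 and 0.678 CPM per kb, above 3.54% and 8.95% of tested coding genes, and Fosb 0.0179 and 0.0730. The order was the same in both libraries except for Arc and Npas4, whose intervals overlapped in each. Egr3 and Egr1 overlapped in both libraries, and in the WT library so did Arc with Egr3 and Egr1 with Fos. The other neighbours in the order did not overlap. The length takes in every annotated isoform, which lowers the value of a gene with long rare isoforms.

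**Figure D3:**
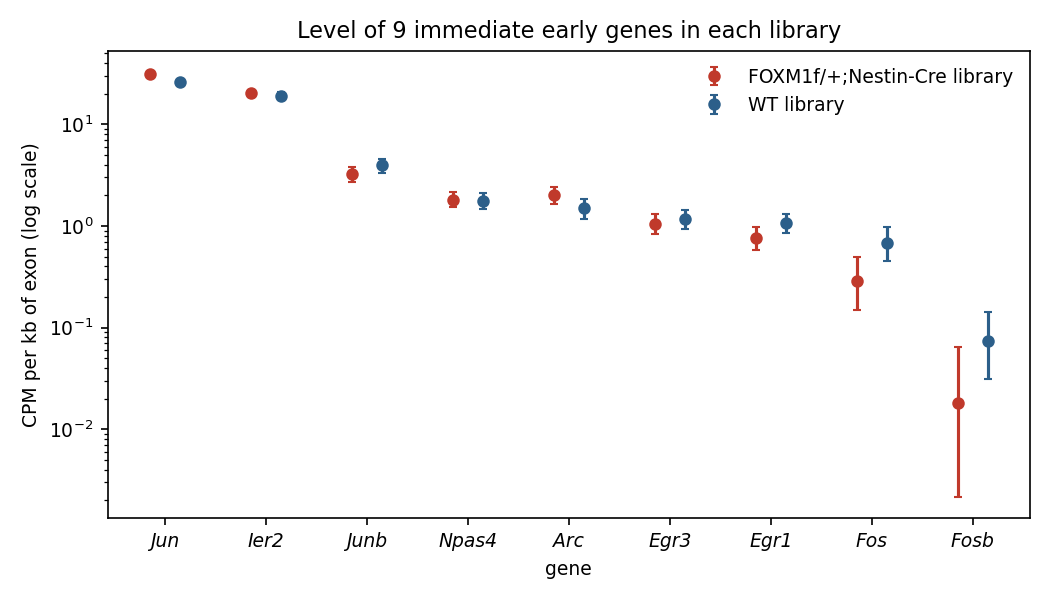
CPM per kb of exon (log scale) of the 9 analysed members, in the order of the WT library, with 95% Poisson counting intervals. Red points are the FOXM1f/+;Nestin-Cre library and blue points the WT library: the levels run from Jun, at 31.3 and 26.2, to Fosb, at 0.0179 and 0.0730, and the intervals of the libraries are apart for Jun alone.

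The members shared a compact gene structure. Their genes spanned 1522 (Ier2) to 7356 bases (Fosb), with a median of 4235, and all 9 were shorter than the median of 25707 bases over 13036 tested coding genes. Jun, Junb and Ier2 had 1 exon in their longest coding transcript, Egr1 and Egr3 had 2, Arc had 3, Fos and Fosb had 4, and Npas4 had 8. For Npas4 the deposited position, printed above, differs from that in GENCODE. Its span here (5962 bases), its exons and the length behind its CPM per kb are those of GENCODE. Of the 9, 8 had 4 exons or fewer, against 20.8% of tested coding genes. The ATTTA pentamer, the core of AU-rich elements that speed mRNA decay, occurred 4 times in the 3′ UTR of Fos, or 4.91 times per kb, and 4 times in that of Jun, or 3.24 per kb. Junb lay between them with 4.12 per kb, and Egr3 had the highest count, 7. Ier2 and Arc had 0. The members' median was 1.64 per kb, beside 1.24 over the coding genes. The longer form TATTTAT was present in 3 of 9 members, Fos, Fosb and Jun, against 28.2% of coding genes, a share near the background.

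Other immediate early genes were taken from a list of 36, of which 34 were tested. Of these, 5 had intervals above 1 (14.7%, against 16.5% of all tested genes) and 11 below 1 (32.4%, against 19.2%), with a median log2 ratio of -0.10. The genes furthest from 1 relative to counting error included Gadd45g, a growth arrest gene that proneural factors also induce, with 2123 and 1524 reads and 1.37-fold higher in the transgenic library (1.28 to 1.46). Btg2, an antiproliferative gene of progenitors about to make neurons, was 1.24-fold higher (1.16 to 1.34). Plk2, a polo-like kinase that activity induces at synapses, had 1824 and 2266 reads and was 1.26-fold lower (1.19 to 1.35). The 1 gene past 1.5-fold was Klf2, a factor of endothelial cells under flow, with 101 and 149 reads, a ratio of 0.666 (0.512 to 0.863). The orphan receptor Nr4a1, picked after its value was seen, stood just inside that bound with 156 and 227 reads, 1.48-fold lower (1.20 to 1.83).

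The list of AP-1 relatives had 14 tested genes, 1 with an interval above 1 (7.14%, against 16.5% of all tested genes) and 4 below (28.6%, against 19.2%), and a median of -0.07. Atf4, a stress factor that pairs with Fos and Jun proteins, was 1.11-fold higher (1.06 to 1.16). Bdnf, Homer1 and other late activity genes formed a list of 15, of which 13 were tested, with 0 intervals above 1 (against 16.5%), 5 below (38.5%, against 19.2%) and a median of -0.05. Inhba, an activin subunit, had 52 and 88 reads and was 1.72-fold lower (1.21 to 2.48), and the synaptotagmin Syt4 was 1.16-fold lower (1.09 to 1.24). Dclk1, a microtubule-binding kinase of young neurons, was 1.09-fold lower (1.05 to 1.13). Pcsk1, the other gene of this list past 1.5-fold, had 23 and 37 reads, 1.64-fold lower with an interval of 0.948 to 2.89 that spans 1.

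Upstream of the members, 3 of 16 transcription factors had intervals above 1 (18.8%, against 16.5% of all tested genes) and 5 below (31.2%, against 19.2%), with a median of -0.01. Srf, which binds the CArG box, had 1176 and 1305 reads and was 1.13-fold lower (1.04 to 1.22). Mef2c, an activity-regulated factor of neurons, was 1.33-fold lower (1.25 to 1.42), and the Creb coactivator Crtc3 was 1.28-fold lower (1.13 to 1.45). The 3 factors with intervals above 1 were Creb1, with a ratio of 1.08 (1.006 to 1.16), Atf1, 1.16 (1.003 to 1.33), and Elk4, 1.14 (1.006 to 1.30). Of 17 kinases of the ERK, JNK and p38 routes, 0 had intervals above 1 (against 16.5%) and 4 below (23.5%, against 19.2%), and the median was 0.00. Mapk9, a JNK, was 1.10-fold lower (1.02 to 1.18), and the neuronal JNK Mapk10 was 1.08-fold lower (1.01 to 1.15). None of the upstream factors and kinases tested reached 1.5-fold.

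**Figure D4:**
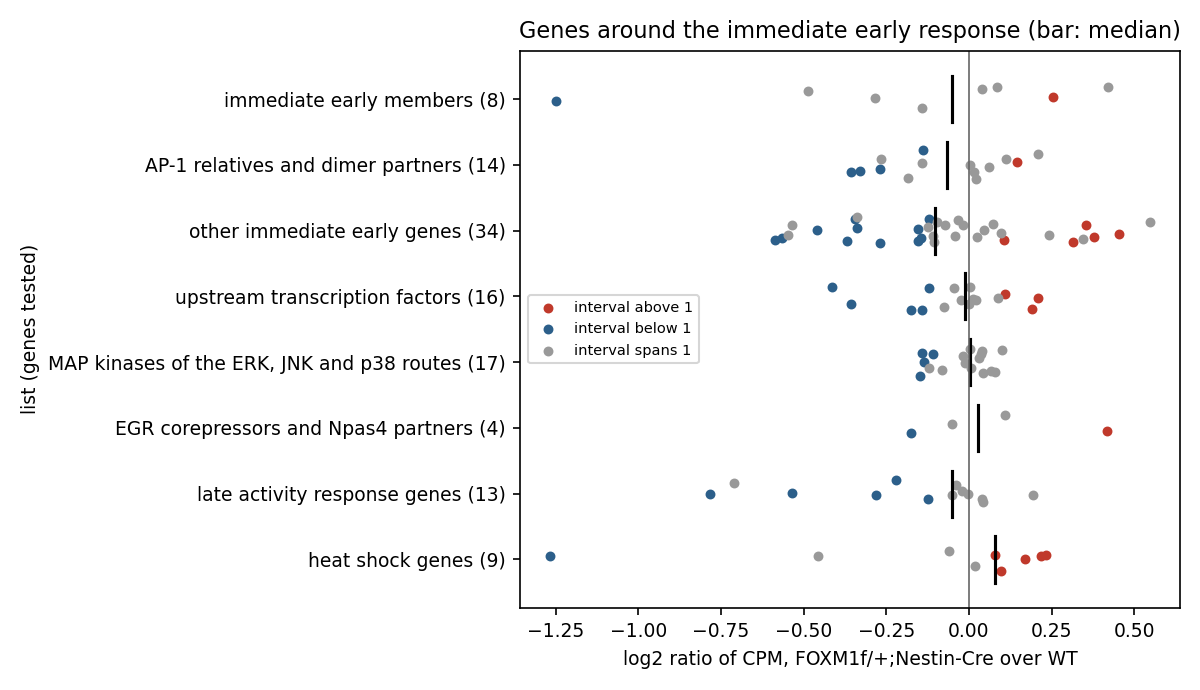
Log2 ratio of CPM, FOXM1f/+;Nestin-Cre over WT, of each tested gene (points) in 8 lists around the immediate early response, with the list's median (black bar). Colours show whether the 95% counting interval lies above, below or across a ratio of 1, and the numbers in brackets are genes tested. The medians lie between -0.10 (other immediate early genes) and 0.08 (heat shock genes), and Fos and Hspa1b are the points furthest to the left.

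Heat shock genes, which also respond to tissue handling, were read beside them. Of 9 tested, 5 had intervals above 1 (55.6%, against 16.5% of all tested genes) and 1 below (11.1%, against 19.2%), with a median of 0.08. Hspa8, a constitutive chaperone, was 1.07-fold higher in the transgenic library (1.06 to 1.09), Hspa5 1.16-fold (1.12 to 1.21) and Hspe1 1.18-fold (1.10 to 1.25). The 1 gene past 1.5-fold was the inducible Hspa1b, with 11 and 26 reads, 2.41-fold lower (1.15 to 5.39). Its near-identical copy Hspa1a had 6 and 11 reads, and reads can be split between the pair, so both values are uncertain. At 0.616 (transgenic) and 1.48 CPM (WT), Hspa1b passed the filter only through the WT library, as did Fos. Of the other genes of this list, Hsph1 was 1.13-fold higher in the transgenic library (1.06 to 1.19). Dnajb1 had a ratio of 0.960 (0.888 to 1.04) and Hspb1 one of 0.729 (0.406 to 1.29), and both intervals span 1. A part of tissue handling in these values was not tested.

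Markers of several cell types moved between the same libraries, and in bulk tissue fewer cells of a type and less RNA per cell cannot be told apart. Of 11 neuronal markers 9 had intervals below 1 (against 19.2% of all tested genes) and 0 above, and of 9 radial glia markers 6 had intervals above 1 (against 16.5%) and 0 below. None of the neuronal or radial glia markers reached 1.5-fold in either direction. Counts of intervals on one side of 1, here and for the lists above, also depend on read depth, which differs from that of all tested genes. Endothelial markers summed to 156 CPM (transgenic) and 177 CPM (WT) (3 of 9 below 1, 0 above), pericyte and meningeal markers to 92.5 and 119 CPM (4 of 7 below), and microglial markers to 50.7 and 61.4 CPM (4 of 9 below). Choroid plexus markers summed to 30.7 and 726 CPM (6 of 7 below), and erythroid markers to 674 and 327 CPM (5 of 7 above). None of these markers was at 0 reads in either library. The part of these shifts, and of the sex difference, in the values of Fos and Jun was not tested.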

How the data were processed

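The authors deposited 1 table with a column of raw read counts and a column of normalised values per genotype. Per the submitters' processing notes, Bowtie2 2.2.3, TopHat2 2.0.12 and HTSeq 0.6.0 were used on mm9. The coordinates are those of GRCm38 instead: 91.7% of 20388 identifiers had the same start and end in GENCODE release M21. The annotation, strand setting and handling of multi-mapping reads are not named by the labels. The deposited normalised values are CPM, with a count of 0 entered as 0.5 reads. The deposited fold change is the ratio of these columns, given also as a log2 value, and the test behind the deposited p-values is not stated.

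Ratios were taken on the authors' CPM, with exact conditional (Clopper-Pearson) 95% intervals of the ratio of 2 Poisson rates, and levels with exact Poisson intervals. The reads carry no molecular identifiers that the labels name, so they need not be independent molecules. With 1 column per genotype no test across replicates was run. All 9 analysed members are named. From each other list up to 3 genes are named whose interval excludes 1, by log2 ratio over its counting error, and some of these are not reported here. Further genes of these lists were chosen after their values were seen. They include family relatives and partners of members, near-identical copies, single genes past 1.5-fold, and genes named to show other directions. Markers are given as sums and counts, except Ttr. Exon lengths, exon numbers and UTRs are from GENCODE, promoter windows from RefSeq (GRCm38.p6). The members and lists were chosen with earlier results of these data known. Alternatives were TMM and RLE scaling (edgeR 4.0.16, R 4.3.3), totals without 23 sex-linked, plexus and erythroid genes, other filters, 2-fold and a pseudocount of 1 read. Python 3.11.15, NumPy 2.4.6, pandas 2.3.3, SciPy 1.17.1 and Matplotlib 3.10.9 were used. The intervals were tested on simulated Poisson counts, the model they assume, which checks the calculation and not the spread between real libraries.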

Additional observations from a re-analysis of the deposited data

How the results depend on the processing

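All 36 member ratios recomputed under the 4 alternatives of scaling, totals and pseudocount kept their side of 1 and stayed within the counting interval of the deposited scale. Scaling and totals multiply all ratios by a common factor close to 1, and the ratio of Jun moved only from 1.193 to 1.206 (TMM) and 1.214 (RLE). This check could therefore hardly fail. The number of members with an interval above 1 was 2, Jun and Arc, with TMM and with RLE factors, in place of 1. The share of all tested genes with such an interval rose too, from 16.5% to 18.8% (TMM) and 20.3% (RLE). RLE scaling shifted the median log2 ratio of all tested genes from -0.01 to 0.02. The filter mattered more because the lowest members are Fos and Fosb. Without a filter, 2 members (Fos and Fosb) were at least 1.5-fold lower, against 14.3% of all genes. With at least 1 CPM in both libraries, or with a mean of at least 10 CPM, Fos was left out. Under these filters 0 members were 1.5-fold lower, against 3.74% and 0.848% of all genes passing them. An interval below 1 was found for 0 members, against 18.7% and 21.1%. The members' median log2 ratio under these filters changed sign, to 0.041 over 7 members and to 0.169 over 2. No paired analysis was possible because the table holds 1 column per genotype and its columns carry no replicate number. With 1 column per genotype, the spread between embryos is not measured, and Fos, Fosb, Egr1 and Egr3 rest on fewer than 100 reads in each library.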
